A study of Mus musculus with 10 samples.

Results

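The genes described here are 10 genes of calcium signalling and calcium storage, Camk2a, Camk2b, Camk2d, Camk2g, Atp2a2, Atp2a3, Ryr2, Itpr1, Itpr2 and Itpr3, out of 54347 gene records. They were chosen by name: Camk2d is the gene that the lncRNA Gm15551 lies within and antisense to, and the others are its paralogs and the pumps and channels of the endoplasmic reticulum calcium store. RNA was read in iBAT, the brown fat pad between the shoulder blades, of 5 ΔGm15551 mice and 5 wild type mice. ΔGm15551 mice carried a CRISPR/Cas9 deletion that includes the first exon of Gm15551, bred to homozygosity. All 10 mice were on the C57BL/6N background, 12 weeks old, fed chow and housed singly at 4 °C for 24 h before the tissue was taken. All libraries used here are from the cold, so the comparison is of genotypes at that temperature only. The deletion was not restricted to fat cells, and the RNA is that of the whole fat pad with all its cell types. In such bulk samples, fewer cells of a type and less RNA per cell cannot be told apart.

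CaMKII is a multi-subunit kinase that is switched on by calcium bound to calmodulin and that can hold its activity by phosphorylating itself. The store of the endoplasmic reticulum is filled by SERCA pumps and emptied through IP3 receptors and ryanodine receptors. In brown fat, noradrenaline released in the cold acts mainly through cyclic AMP, and also through alpha-1 receptors, Gq and phospholipase C, whose product IP3 opens the IP3 receptors. Cycling of calcium by SERCA pumps uses ATP and releases heat, and is known from muscle and from thermogenic fat cells.

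None of the 10 genes passed the test for a difference between ΔGm15551 and wild type iBAT. Their log2FC (ΔGm15551 minus wild type) ran from −0.14 for Camk2b to 0.10 for Camk2d, with 4 genes higher and 6 lower and a median of −0.02. With edgeR's quasi-likelihood test and Benjamini-Hochberg adjustment over the 13732 genes tested, 0 of the 10 were called at an adjusted p under 0.05, as were 0 of all genes tested (0%). At an unadjusted p under 0.05, edgeR gave 0 of the 10 and 219 of all genes (1.59%). DESeq2 and limma-voom also called 0 of the 10. What did vary was the level between mice of both genotypes: Atp2a2 ranged over 2.58-fold, Itpr3 over 2.11-fold and Itpr1 over 2.08-fold, and Ryr2 and Camk2a, on few counts, over 4.10-fold and 22.1-fold. The levels of Atp2a2 and Itpr1 ran together from mouse to mouse.

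The libraries held between 9680976 and 15771170 estimated counts each. Levels are given as CPM, the count of a gene relative to the library total, scaled between libraries by the trimmed mean of M values (TMM). Gm15551 had 0 counts in all 5 ΔGm15551 libraries and 1, 2, 6, 7 and 0 counts in wild type replicates 2, 3, 5, 6 and 7 (16 counts in all, at least 5.79-fold higher than a floor of 3 counts over the group; exact two-sided permutation p = 0.047619). The library of wild type replicate 7 therefore does not show the lncRNA, and at its depth up to 0.310 CPM would also give 0 counts. With any 1 ΔGm15551 mouse left out, the exact permutation p of the Gm15551 difference was 0.0873. All 10 libraries had the brown adipocyte markers Ucp1 (5747 to 10990 CPM) and Cidea (1612 to 2752 CPM). Skeletal muscle markers differed widely between libraries of both genotypes: the summed level of 10 of them was 2660 CPM in wild type replicate 7, 1602 in ΔGm15551 replicate 4 and 779 in ΔGm15551 replicate 1, and between 29.98 and 260 CPM in the other 7. At the low end of that list, Ckm, Tnnc2, Pvalb and Myh4 were at 0 in at least 1 library of each genotype. Myl1 in contrast stayed between 28.8 and 132 CPM, and made up 28.8 of the 29.98 CPM in ΔGm15551 replicate 2. Mice of wild type replicates 5, 6 and 7 belong to a higher series of mouse numbers that holds no ΔGm15551 mouse, so its part in any difference cannot be told apart from genotype in those 3 mice.

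Gm15551 (ENSMUSG00000086679.2, GRCm38, chr3:126667329-126669044, minus strand) is a lncRNA of 2 exons, of 200 and 335 bases. Camk2d (ENSMUSG00000053819.16, chr3:126596302-126846326, plus strand) spans 250025 bp. The start of Gm15551 lies 72742 bp downstream of the start of Camk2d. The nearest Camk2d exons end 68169 bp before the lncRNA and begin 15616 bp after it, as the map of the locus shows. The window around the start of Gm15551 (RefSeq, GRCm38.p6, chr3:126668894-126669193, minus strand) is shown because the first exon was the stated target of the deletion. The coordinates given for the deletion in the study's methods, labelled GRCm38, do not overlap this exon in the GRCm38 annotation used here. They may refer to another build, which was not tested, so the deleted bases are not marked. It is written 5′ to 3′ along the lncRNA, and capitals mark the 151 bases that GENCODE M21 places in exon 1.

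Gm15551 start window: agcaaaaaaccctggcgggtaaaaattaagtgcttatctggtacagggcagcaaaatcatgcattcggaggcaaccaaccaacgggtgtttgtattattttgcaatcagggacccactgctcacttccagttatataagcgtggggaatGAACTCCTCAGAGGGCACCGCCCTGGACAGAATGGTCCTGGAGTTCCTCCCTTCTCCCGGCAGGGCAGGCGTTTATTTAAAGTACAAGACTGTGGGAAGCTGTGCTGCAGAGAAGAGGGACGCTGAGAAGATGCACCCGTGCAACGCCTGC

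**Figure D1:**
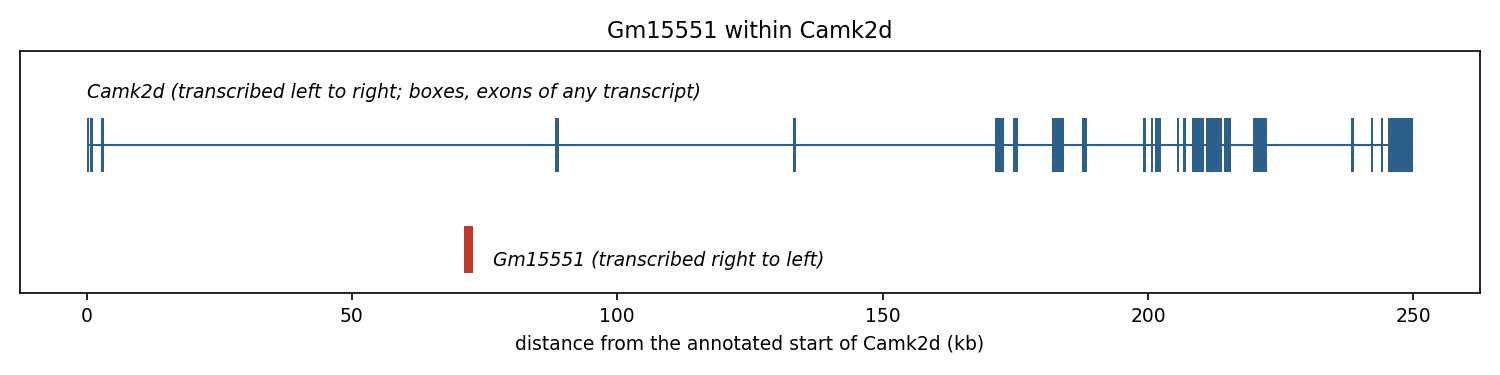
Map of Camk2d and Gm15551 on 1 axis, the distance in kb from the annotated start of Camk2d. Blue boxes are exons of any Camk2d transcript, with narrow ones widened to be visible, and the red box is the span of Gm15551, whose start is 72742 bp from that of Camk2d and which touches no blue box.

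The CaMKII genes are on 4 chromosomes: Camk2a (ENSMUSG00000024617.16) on 18, Camk2b (ENSMUSG00000057897.14) on 11, Camk2d on 3 and Camk2g (ENSMUSG00000021820.18) on 14. They encode the alpha, beta, delta and gamma subunits, which share a kinase domain, a regulatory segment and an association domain. The coding sequence of the regulatory segment is shown for the 3 genes that were clearly expressed, because it shows how far the paralogs differ at the RNA level, on which the assignment of reads rests, where the proteins are nearly alike. Each run is 93 bases from GENCODE M21 transcripts and spans parts of 2 exons, within chr11:5988126-5989029 (minus strand) for Camk2b, chr3:126797711-126798255 (plus strand) for Camk2d and chr14:20760169-20760471 (minus strand) for Camk2g, all GRCm38. Capitals mark the codon of threonine 287, which the kinase phosphorylates to stay active without calcium.

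Camk2b: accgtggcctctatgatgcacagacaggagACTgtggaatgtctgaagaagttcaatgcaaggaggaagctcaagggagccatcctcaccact
Camk2d: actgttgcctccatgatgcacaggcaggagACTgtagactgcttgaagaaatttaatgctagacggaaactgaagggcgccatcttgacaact
Camk2g: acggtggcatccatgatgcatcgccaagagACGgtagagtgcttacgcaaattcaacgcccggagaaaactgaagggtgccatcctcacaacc

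Camk2b and Camk2d were identical at 74 of the 93 bases (79.6%), Camk2d and Camk2g at 69 (74.2%), and Camk2b and Camk2g at 67 (72.0%). The encoded segments were identical at 30, 29 and 30 of 31 residues, in the same order. Reads of these genes can therefore be told apart nearly everywhere: of the 31-base words in each gene's transcripts, 0.371% of those of Camk2b, 0.131% of those of Camk2d, 0.79% of those of Camk2a and 0 of those of Camk2g occur in any other gene.

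Camk2d had the most counts of the 4 CaMKII genes and the highest level per length of the longest coding transcript, though not with other choices of length given below. In ΔGm15551 replicates 1, 2, 4, 5 and 7 it was at 26.6, 44.7, 34.2, 26.9 and 31.5 CPM. In wild type replicates 2, 3, 5, 6 and 7 it was at 29.6, 31.3, 31.1, 30.5 and 30.4 CPM. The ΔGm15551 mice lay on both sides of the narrow wild type range, with 3 above it and 2 below. The log2FC was 0.10 ± 0.14 (SE), with an adjusted p of 0.999809 in edgeR, and the limma-voom 95% interval ran from −0.22 to 0.36, or 0.860-fold to 1.29-fold. The positive sign rested on ΔGm15551 replicate 2, the highest of the 10 mice: without it the log2FC was −0.04.

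Camk2g was the next most abundant subunit gene. Its levels were 21.1, 14.8, 15.9, 17.3 and 12.6 CPM in ΔGm15551 mice. They were 14.95, 17.0, 17.4, 16.9 and 21.2 CPM in wild type mice, in the order of replicates given for Camk2d. The genotypes overlapped over nearly the whole range, and the highest mouse of each genotype was at the same level. The log2FC was −0.10 ± 0.14 (SE, edgeR adjusted p = 0.999809, limma-voom 95% interval −0.41 to 0.20).

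Camk2b, known best from neurons and also found in other tissues, was at 8.07, 6.61, 12.2, 9.90 and 10.9 CPM in ΔGm15551 mice. In wild type mice it was at 9.58, 9.51, 9.51, 11.5 and 12.3 CPM. The lowest 2 mice were both ΔGm15551, while the others were mixed. The log2FC of −0.14 ± 0.17 (SE, edgeR adjusted p = 0.999809, interval −0.53 to 0.20) was negative in every alternative run, between −0.24 and −0.001, at unadjusted p-values from 0.169 to 0.996 (edgeR, DESeq2 or limma-voom).

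Camk2a, the subunit gene typical of forebrain neurons, rested on 2 to 28 counts a library and 106 in all. It was at 0.954, 0.284, 2.01, 0.767 and 0.224 CPM in ΔGm15551 mice and at 0.895, 0.343, 0.358, 0.130 and 2.87 CPM in wild type mice. The 3 highest mice, wild type replicate 7 and ΔGm15551 replicates 4 and 1, were also the 3 with the most skeletal muscle marker RNA, a relation whose part in its level was not tested. The log2FC of −0.02 ± 0.77 (SE, edgeR adjusted p = 0.999809) had an interval from −1.29 to 1.93, or 0.410-fold to 3.82-fold, so that changes within these limits were not excluded. Over replicates 2, 5 and 7 of each genotype alone (6 mice) the log2FC was −1.63 (edgeR adjusted p = 0.964), so the value depends on the mice taken.

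The pump genes included the highest of the 10. Atp2a2 (ENSMUSG00000029467.15, chr5:122453513-122502225) encodes SERCA2, the pump found in nearly all cells. It was at 218, 541, 432, 247 and 353 CPM in ΔGm15551 replicates 1, 2, 4, 5 and 7. It was at 285, 425, 456, 438 and 210 CPM in wild type replicates 2, 3, 5, 6 and 7. Each genotype held both high and low mice, ΔGm15551 replicate 2 being the highest and wild type replicate 7 the lowest of all. The means of 358 ± 133 and 363 ± 109 CPM (SD, n = 5 each) gave a log2FC of −0.02 ± 0.27 (SE, edgeR adjusted p = 0.999809), with an interval from −0.63 to 0.57. The sign of this difference turned in 5 of the 10 fits that left out 1 mouse, with values from −0.22 to 0.12. Of the 31-base words of Atp2a2, 5.42% occur in other genes, so a small part of its reads could be shared.

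Atp2a3 (ENSMUSG00000020788.15, chr11:72961169-72993044) encodes SERCA3, known from blood, endothelial and epithelial cells. It was at 24.7, 28.1, 23.1, 33.4 and 24.9 CPM in ΔGm15551 mice and at 26.1, 18.6, 23.4, 27.5 and 33.9 CPM in wild type mice. The lowest and the highest mouse were both wild type, and the log2FC was 0.05 ± 0.16 (SE, edgeR adjusted p = 0.999809, interval −0.27 to 0.41).

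Among the release channels, Itpr1 and Itpr2, which encode IP3 receptors 1 and 2, were high and Itpr3 was lower. Itpr1 (ENSMUSG00000030102.11, chr6:108213096-108551109) was at 62.8, 118, 99.9, 74.6 and 97.0 CPM in ΔGm15551 mice. It was at 87.3, 109, 109.8, 110.1 and 56.8 CPM in wild type mice. The order of the mice was nearly that of Atp2a2, with wild type replicate 7 and ΔGm15551 replicate 1 lowest and ΔGm15551 replicate 2 highest. The log2FC was −0.07 ± 0.20 (SE, edgeR adjusted p = 0.999809, interval −0.51 to 0.41).

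Itpr2 (ENSMUSG00000030287.15, chr6:146108299-146502223) was the steadiest of the 10 relative to its mean, with a coefficient of variation of 14.9%. It was at 88.6, 143, 107, 118 and 108 CPM in ΔGm15551 mice and at 111, 105, 89.99, 129 and 105 CPM in wild type mice. The genotypes overlapped, and the log2FC was 0.07 ± 0.14 (SE, edgeR adjusted p = 0.999809, interval −0.23 to 0.35).

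Itpr3 (ENSMUSG00000042644.9, chr17:27057304-27122223), the third IP3 receptor gene, was at 17.9, 11.4, 14.0, 22.1 and 12.5 CPM in ΔGm15551 mice and at 15.6, 10.4, 16.2, 13.6 and 18.7 CPM in wild type mice. Its high mice were among the low mice of Itpr1, and its log2FC was 0.06 ± 0.20 (SE, edgeR adjusted p = 0.999809, interval −0.38 to 0.48).

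Ryr2 (ENSMUSG00000021313.16, chr13:11553102-12106945), the ryanodine receptor gene of heart and brain, had 4 to 17 counts a library. It was at 0.734, 0.355, 0.893, 1.07 and 0.970 CPM in ΔGm15551 mice and at 0.716, 1.46, 1.22, 0.521 and 0.411 CPM in wild type mice. The genotypes overlapped, and the log2FC of −0.11 ± 0.40 (SE, edgeR adjusted p = 0.999809) had an interval from −0.93 to 0.81, or 0.524-fold to 1.75-fold. The plot of levels by mouse shows all 10 genes.

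**Figure D2:**
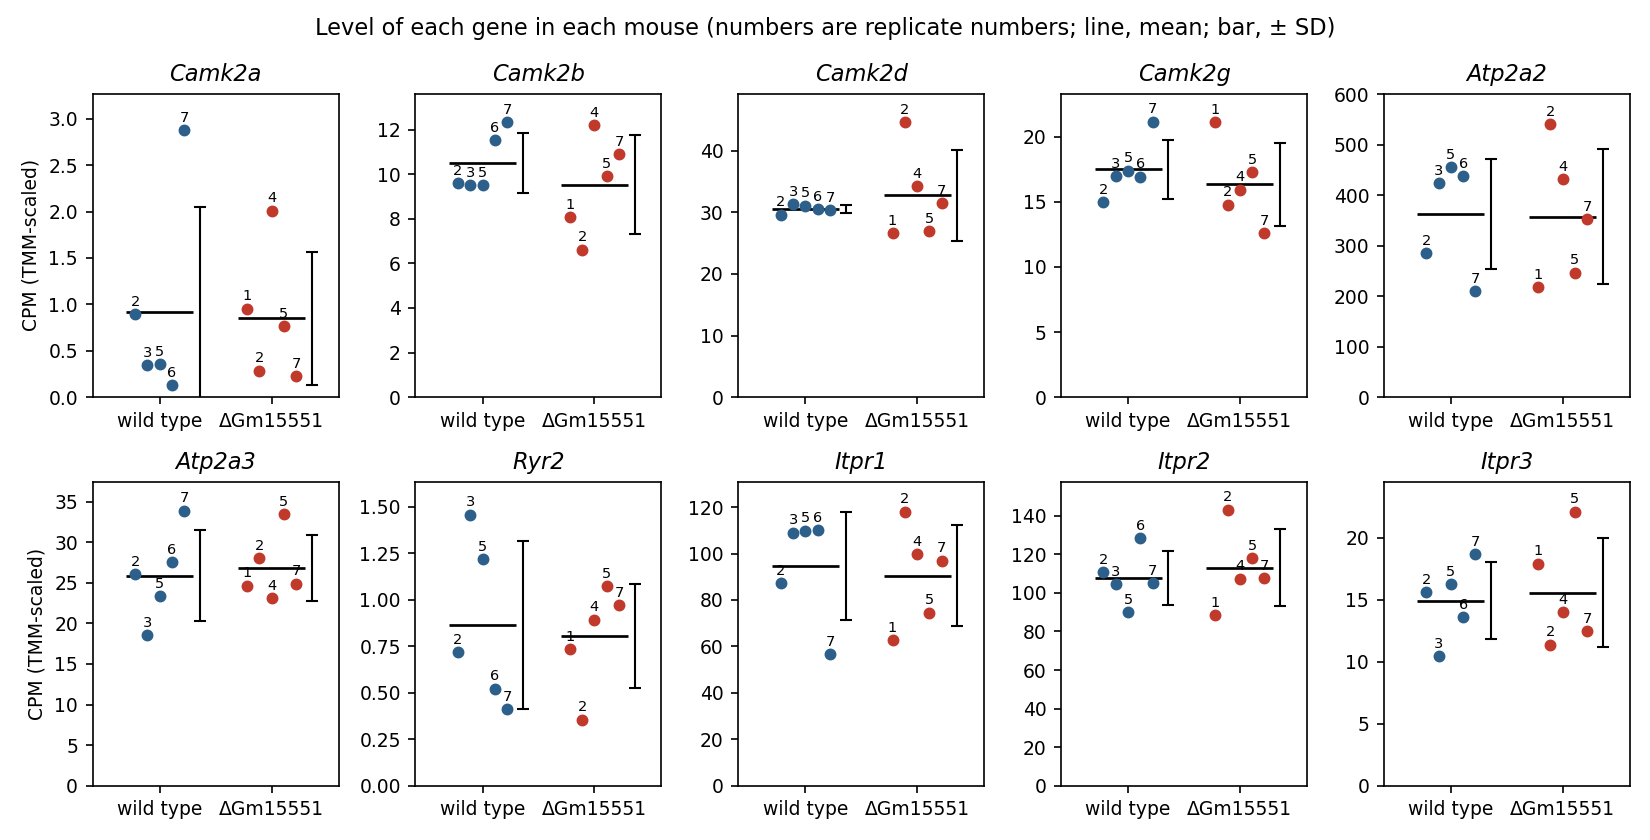
Level of each of the 10 genes in each mouse, in TMM-scaled CPM on linear axes that start at 0, for 5 wild type (blue) and 5 ΔGm15551 (red) mice. Numbers are replicate numbers, lines are means and bars are ± SD, cut at 0 for Camk2a in wild type. In every panel the genotypes overlap, and Camk2d is spread more widely in ΔGm15551 (26.6 to 44.7 CPM) than in wild type (29.6 to 31.3 CPM).

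Divided by the length of the longest coding transcript, the mean level over the 10 mice was 80.3 CPM per kb for Atp2a2, far above the rest and above Itpr2, the next gene, in 10 of 10 mice. Itpr2 at 9.45 ± 1.41 and Itpr1 at 9.38 ± 2.17 CPM per kb (SD, n = 10) could not be ordered, as each was higher in 5 mice. Itpr1 was above Camk2d in all 10 mice. Camk2d at 5.74 ± 0.918 and Atp2a3 at 5.72 ± 1.01 CPM per kb likewise changed places, each being higher in 5 mice. Below them came Camk2g at 4.57, Camk2b at 2.49 and Itpr3 at 1.69 CPM per kb, each but Camk2g below its upper neighbour in all 10 mice, and Camk2g below Atp2a3 in 8. Camk2a at 0.178 and Ryr2 at 0.0496 CPM per kb were the lowest, with Camk2a the higher in 6 mice. The order depends on the length used: with the median transcript length Itpr1 ranked 1 and Atp2a2 ranked 2, and with the union of all exons Camk2d moved from rank 4 to rank 7, while Camk2g stood above Camk2d with either, at ranks 4 and 5.

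Within each family, the share of each gene was computed from these levels per kb of the longest coding transcript. No share differed by genotype beyond the spread between mice. Camk2d made up 45.9 ± 8.20% of the length-scaled level of the 4 CaMKII genes in ΔGm15551 mice, against 42.7 ± 3.27% in wild type mice (SD over 5 mice a genotype, exact two-sided permutation p = 0.508). Camk2g made up 34.3 ± 7.06% and 36.1 ± 1.76%, and Camk2b 18.5 ± 4.56% and 19.9 ± 1.47%. The highest Camk2d share, 58.7%, was in ΔGm15551 replicate 2, and the lowest, 37.0%, in wild type replicate 7. Atp2a2 supplied 92.4 ± 3.08% of the summed Atp2a2 and Atp2a3 level in ΔGm15551 and 92.7 ± 3.85% in wild type. Itpr1 and Itpr2 made up similar parts of the IP3 receptor level with this length, at 44.2 ± 5.09% and 47.0 ± 2.47% in ΔGm15551 and 46.3 ± 7.82% and 45.4 ± 6.00% in wild type. The shares depend on the length used: over the 10 mice, Camk2d had 44.3% with the longest coding transcript, 29.0% with the median transcript length and 27.0% with the union of exons, and Itpr1 had 45.2%, 55.7% and 35.3%, while Atp2a2 stayed between 91.4% and 93.2%. The 6 shares tested had adjusted p-values between 0.762 and 0.905 in exact two-sided permutation tests over 252 assignments.

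**Figure D3:**
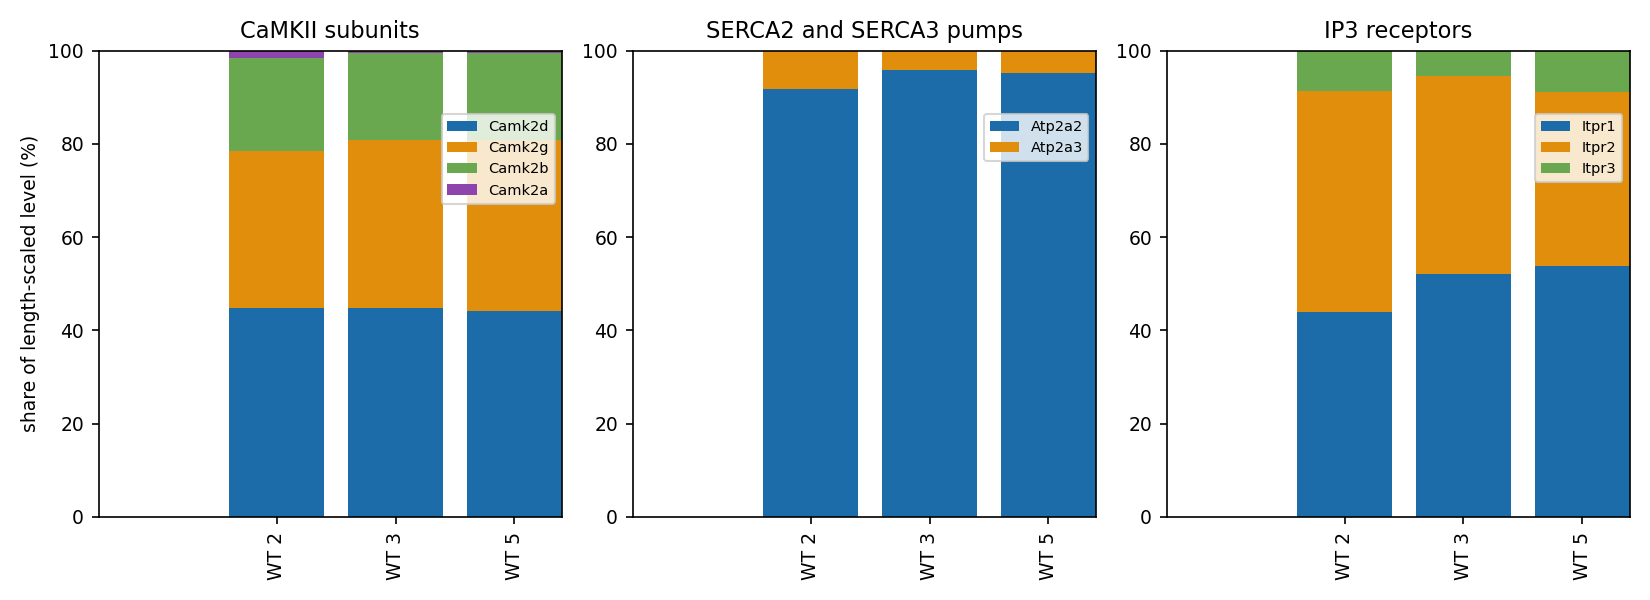
Share of each gene in the length-scaled level (CPM per kb) of its family, in percent, stacked by mouse. The horizontal axis covers only wild type (WT) replicates 2, 3 and 5. The other wild type mice and all ΔGm15551 mice lie outside the panels. Over all mice, drawn or not, Atp2a2 took between 86.4% and 95.9% of the summed Atp2a2 and Atp2a3 level (Atp2a1 is not part of the sum). The Camk2d share was highest, at 58.7%, in ΔGm15551 replicate 2, which is not drawn.

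Atp2a2 and Itpr1 varied together across mice. The coefficient of variation over the 10 mice was 31.9% for Atp2a2, higher than in 95.7% of the 235 genes within 0.5 of its level on the log2 scale, and 23.1% for Itpr1, higher than in 86.1% of 1154 such genes. For Itpr3 it was 23.7%, higher than in 84.4% of 2303 genes, and for Camk2a and Ryr2, on few counts, it was 101% and 42.7%. For Camk2d it was 15.99%, higher than in 62% of 2243 genes. On the log2(CPM + 0.5) scale, Atp2a2 and Itpr1 had a Pearson's r of 0.967 and a Spearman's rho of 0.976 over the 10 mice. The permutation p of r was 1e-05, the smallest that 100000 resamples can give, and the adjusted p-values were 0.00054 for r and 0.00081 for rho over 54 relations. The relation held within ΔGm15551 (r = 0.980) and within wild type (r = 0.970), without the 2 mice farthest from the median of Atp2a2 (r = 0.969) and without the 3 mice richest in muscle markers (r = 0.983). The relation is one between mice and was seen in both genotypes.

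The 54 relations were the 36 pairs among 9 of the genes (Camk2a was left out for its low counts), each gene with the summed endothelial markers Pecam1, Cdh5 and Kdr, and each gene with the length slope of the library. The length slope is the change of a gene's log2 level, relative to its mean over mice, per doubling of transcript length, and was computed after the pattern above had been seen. It ran from −0.10 in ΔGm15551 replicate 5 to 0.09 in wild type replicate 3, so that in some libraries long transcripts read higher than in others. In 8 relations the adjusted p of r was under 0.05, and in 4 that of rho was as well: Atp2a2 with Itpr1, Atp2a2 and Itpr1 each with the endothelial markers, and Itpr3 with the length slope.

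Atp2a2 fell where the endothelial markers rose (r = −0.941, adjusted permutation p = 0.00216; rho = −0.915, adjusted permutation p = 0.0099; −0.958 in ΔGm15551 and −0.940 in wild type; −0.887 without the 2 farthest mice). Itpr1 did the same (r = −0.930, adjusted permutation p = 0.00189; rho = −0.964, adjusted permutation p = 0.00081; −0.995 and −0.880; −0.908 without the 2 farthest). The summed endothelial level lay between 623 and 1144 CPM, between 669 and 1144 CPM in ΔGm15551 and between 623 and 1056 CPM in wild type, and 0 of its 3 genes differed by genotype in edgeR, at adjusted p under 0.05 and at unadjusted p under 0.05 alike. Both genes also ran with the length slope: r was 0.865 for Atp2a2 (adjusted permutation p = 0.0149; rho = 0.794, adjusted permutation p = 0.0695) and 0.861 for Itpr1 (adjusted permutation p = 0.0175; rho = 0.830, adjusted permutation p = 0.0508). With the length slope removed from both by regression, r was 0.872 between Atp2a2 and Itpr1, −0.881 between Atp2a2 and the endothelial markers and −0.847 between Itpr1 and the endothelial markers. Among cell type marker sums, only the endothelial one was tested against these genes. Summed levels of 6 brown adipocyte markers were lowest in the 2 mice lowest in Atp2a2. They were 10291 CPM for ΔGm15551 replicate 1 and 10339 CPM for wild type replicate 7. The highest sum, 15000 CPM, was that of ΔGm15551 replicate 2, as for Atp2a2. Other mice broke this order. ΔGm15551 replicate 5 had a sum of 13876 CPM with Atp2a2 at 247 CPM. Wild type replicate 5 had 12715 CPM with Atp2a2 at 456 CPM. The part of cell composition in these relations was not tested.

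Itpr3 ran against the length slope (r = −0.931, adjusted permutation p = 0.00216; rho = −0.891, adjusted permutation p = 0.0175; −0.932 in ΔGm15551 and −0.946 in wild type; −0.849 without the 2 farthest mice). Itpr3 and Itpr1 had r = −0.761 (adjusted permutation p = 0.0605; rho = −0.721, adjusted permutation p = 0.122), and r became 0.219 with the length slope removed. Atp2a3 ran against the length slope by r alone (r = −0.784, adjusted permutation p = 0.0495; rho = −0.576, adjusted permutation p = 0.247; −0.546 without the 2 farthest mice). Camk2d and Atp2a2 gave r = 0.731 (adjusted permutation p = 0.0359) and rho = 0.733 (adjusted permutation p = 0.122), with r = 0.621 without the 2 farthest mice and r = 0.533 with the length slope removed. The adjusted p of that relation was under 0.05 for r and not for rho, though both coefficients were of the same size.

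**Figure D4:**
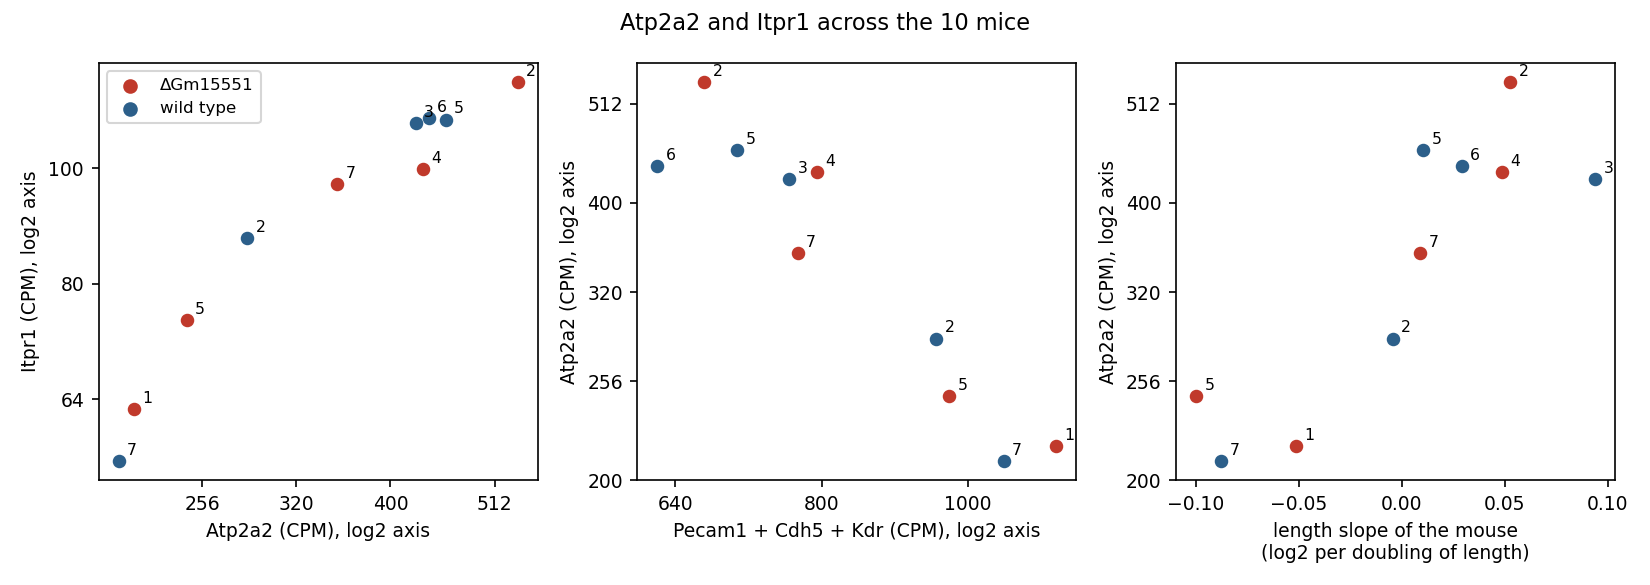
Each point is 1 mouse, numbered by replicate, in red for ΔGm15551 and blue for wild type. The panels plot Itpr1 against Atp2a2, Atp2a2 against the summed endothelial markers and Atp2a2 against the length slope, with CPM on log2 axes. Red and blue points follow the same line in the first panel (r = 0.967), a falling one in the second (r = −0.941) and a looser rising one in the third (r = 0.865).

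The genes whose log2 CPM was most like that of Camk2d over the 10 mice, among 13090 genes at a mean of at least 1 CPM, were Lbh, a transcription cofactor (r = 0.93), Tecpr2, which acts in autophagy (r = 0.93), and Tbc1d4, the AS160 protein of insulin-stimulated glucose uptake (r = 0.91). With ΔGm15551 replicate 2 left out, where Camk2d was highest, these were 0.79, 0.87 and 0.68. Of the 7 others of the 10 genes that reached 1 CPM, Atp2a2 was the most like Camk2d, at rank 308, while Itpr3, Camk2g, Camk2b and Atp2a3 had negative r, of −0.66, −0.46, −0.40 and −0.10. Without ΔGm15551 replicate 2, r was −0.67 for Itpr3, −0.46 for Camk2g and −0.45 for Atp2a3, but 0.65 for Camk2b, whose sign rested on that mouse.

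The skeletal muscle forms of the store genes were highest in the mice with the most muscle marker RNA, in both genotypes. Atp2a1, which encodes SERCA1, was at 138, 0.284, 453, 18.0 and 0.0746 CPM in ΔGm15551 mice and at 7.70, 0.257, 64.1, 0.195 and 517 CPM in wild type mice. In wild type replicate 7 and ΔGm15551 replicate 4 it exceeded Atp2a2, per kb of the longest coding transcript as well as in CPM, while in 2 mice of each genotype it was under 0.3 CPM. Of the 31-base words of Atp2a1, 20.3% occur in other genes, so its low values in particular could include shared reads. Ryr1, the ryanodine receptor gene of skeletal muscle, was highest in the same mice, at 69.9 and 63.7 CPM. Their log2FC were 0.05 ± 2.11 and 0.11 ± 1.75 (SE, edgeR adjusted p = 0.999809 for both), and the part of muscle in the tissue taken was not tested. Whether iBAT cells themselves read Atp2a1 cannot be told apart from muscle in the muscle-rich libraries.

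Pln and Sln encode phospholamban and sarcolipin, small membrane proteins that slow SERCA pumps, and both were under the filter on low counts. Pln was at 0.514, 0, 0.670, 0 and 0.447 CPM in ΔGm15551 mice and at 1.07, 0.942, 0.787, 0.586 and 2.16 CPM in wild type mice. Of the ΔGm15551 mice, 4 lay below all wild type mice. Counts were 0 to 9 in ΔGm15551 and 9 to 21 in wild type (exact two-sided permutation p = 0.0159). Without the filter, edgeR estimated a log2FC of −1.70 ± 0.66 (SE), for which the unadjusted p was 0.0210, or 0.835 after adjustment over 30984 records. The difference therefore did not pass over all genes. Pln was 1 of 16 genes of the wider list under the filter, of which 2 had an unadjusted exact permutation p under 0.05. The other was Mcub, a subunit of the mitochondrial calcium uniporter. Its means were 0.505 CPM (ΔGm15551) and 0.240 CPM (wild type), with an exact permutation p of 0.0317. Without the filter, its log2FC was 1.09 ± 0.56 (SE), at an unadjusted edgeR p of 0.0563 and an edgeR adjusted p of 0.835. Mcub was named after its values were seen. The share of all genes under the filter with an exact p under 0.05 was not computed, so 2 of 16 has no background beside it. Sln had counts in 1 ΔGm15551 and 3 wild type libraries, at up to 1.41 CPM.

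Of 86 other genes of calcium handling, 70 were tested, and 0 were called in either direction (0% of all genes tested) or had an unadjusted p under 0.05 in edgeR (1.59% of all genes). Their median log2FC was −0.04, with 24 higher and 46 lower, a split that was not tested. Among all genes tested, 6830 were higher and 6902 lower. The median size of the log2FC of the 70 genes was 0.08 on the log2 scale, against 0.09 for all genes tested and 0.07 for the 10 genes. Among the 70 tested genes, the largest difference in each group was Nfatc2 (−0.48 ± 0.36) among calcineurin and NFAT genes, Plcg2 (0.42 ± 0.25) among the receptor and phospholipase C genes, and Camk2n2 (0.32 ± 0.19), an inhibitor of CaMKII, among calmodulin and kinase genes. It was Atp2b4 (−0.30 ± 0.15, unadjusted p = 0.0710), a plasma membrane calcium pump, among pumps and exchangers of other membranes, Casq1 (−0.24 ± 1.54), the calsequestrin of skeletal muscle, among muscle store genes, and Slc8b1 (0.21 ± 0.13), the mitochondrial sodium-calcium exchanger, among mitochondrial genes. It was Orai3 (0.15 ± 0.14), a channel of store-operated entry, in that group, and Asph (−0.13 ± 0.15) among store buffers and regulators (SE, edgeR adjusted p = 0.999809 for these 8). None of the 8 passed the test, and the plot of log2FC sets them beside the 10 genes.

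**Figure D5:**
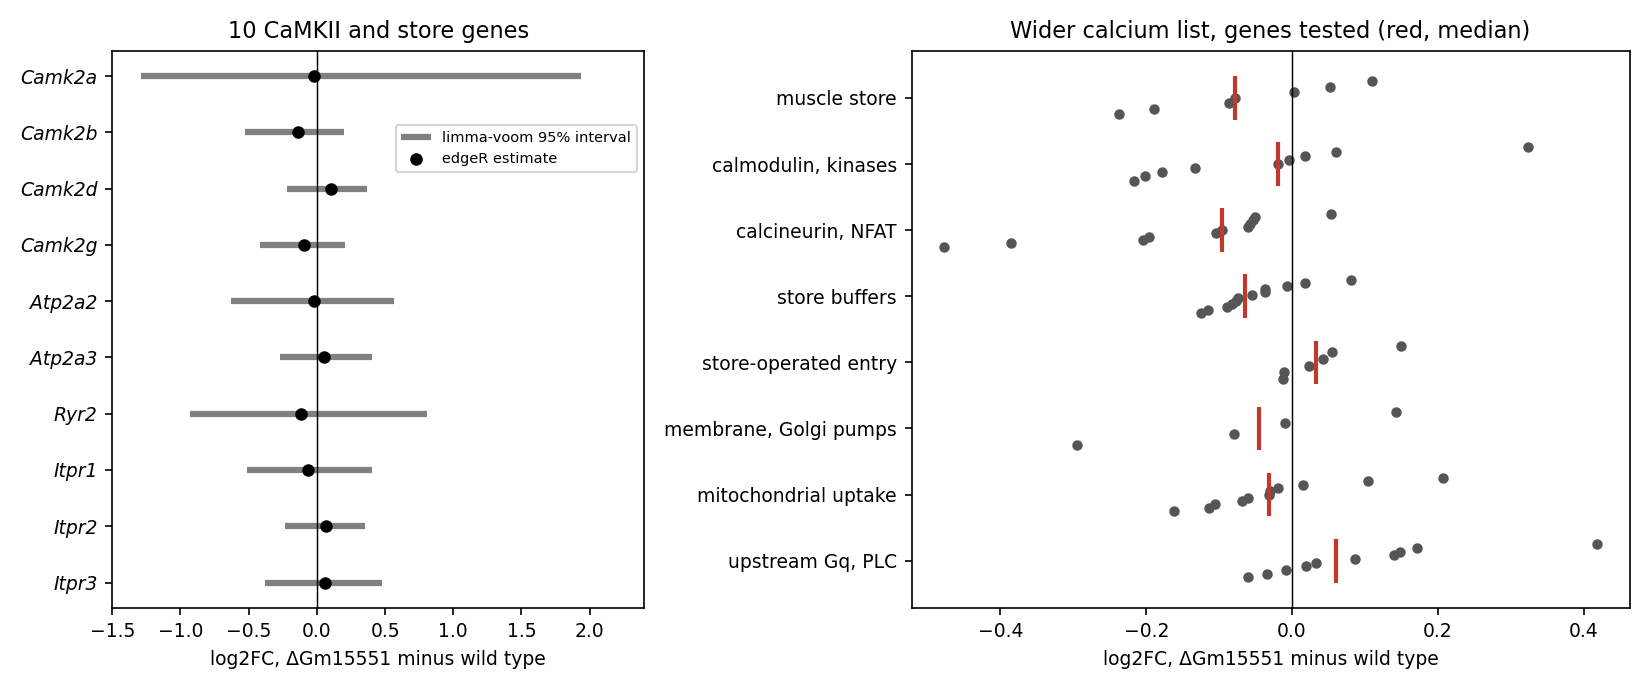
Left, log2FC (ΔGm15551 minus wild type, 5 mice each) of the 10 genes as estimated by edgeR (points) with the limma-voom 95% interval (grey bars). Right, log2FC of the 70 tested genes of the wider calcium list by group, with the median of each group in red. All 10 intervals include 0, the widest is that of Camk2a (−1.29 to 1.93), and the points on the right lie between −0.48 and 0.42.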

How the data were processed

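Poly A RNA of 10 iBAT samples was sequenced as paired ends. Per the labels and the study's methods, the authors filtered reads by quality in cutadapt and ran Salmon on the GENCODE M22 transcripts (GRCm38). Tool versions and the use of read strand are not given in the sources used here. The deposited table holds estimated counts per gene, already whole numbers, with no normalization. Each sample's genotype was taken from its label.

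The count model was that of edgeR 4.0.16 (R 4.3.3): filterByExpr (minimum count 10, minimum total 15, which all 10 genes passed), TMM scaling, and the robust quasi-likelihood test of genotype without covariates, with Benjamini-Hochberg adjustment. limma 3.58.1 (voom) gave intervals, and DESeq2 1.42.0 was an alternative. The smallest adjusted p over all genes was 0.999809. Single values were compared by exact permutation over 252 assignments. Exact p-values and fits measure the spread between mice. Floors of counts cover counting error only.

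The 10 genes and all gene lists were chosen with earlier results of these data known. Genes named were the 10 genes, Gm15551, Atp2a1, Ryr1, Pln and Sln, the gene of largest log2FC in each wider group, and the 3 genes most like Camk2d. Cell type markers came from marker lists, and 6 genes of the wider list were named after their correlation with Atp2a2 was seen. Coordinates, lengths and sequences are from GENCODE M21 and RefSeq (GRCm38). Shares, correlations and length slopes (11879 genes, 86.5% of those tested) were added after seeing the data. Alternatives were other scaling, filters and tests, leaving out each mouse or wild type replicates 5, 6 and 7 together, the summed muscle markers as a covariate, and a replicate block.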

Additional observations from a re-analysis of the deposited data

Results flagged for a closer look

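Of 44 groups of 5 mice searched, 6 held 1 mouse far from the others (gap over range above 0.71). For independent, normally distributed values about 1 in 20, or 2.2, would be flagged. The muscle genes searched are skewed, hold values of 0 and run together across mice, so 6 against 2.2 is a description and not a test. Wild type replicate 7 stood apart in 5 of them: Camk2a at 2.87 CPM (other wild type mice 0.130 to 0.895), Atp2a1 at 517 CPM (0.195 to 64.1), Ryr1 at 69.9 CPM (0 to 9.16), Sln at 0.616 CPM (0 to 0.143) and the summed skeletal muscle markers at 2660 CPM (36.1 to 260). ΔGm15551 replicate 4 stood apart in Sln, at 1.41 CPM where the other 4 mice of its genotype had 0 counts. It had the second highest sum of muscle markers. The part of muscle RNA in these values was not tested.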

How the results depend on the processing

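In 21 alternatives, by other scaling, filters, tests or mice, 0 of the 10 genes, 0 of the wider calcium list and 0 of all genes were called at an adjusted p under 0.05 (lowest 0.0615, with DESeq2). At an unadjusted p under 0.05 the alternatives gave 168 to 869 genes, 0 of the 10 and 0 to 4 of the wider list. Stricter filtering (1 CPM in 5 mice) left 8 of the 10 genes. The sign of the log2FC turned in 0 alternatives for Camk2b, in 1 each for Camk2d, Camk2g and Itpr2, and in 2 to 9 for the other 6 genes, and the cause was not tested. Camk2a turned to 0.32 with limma-voom, 0.45 without wild type replicates 5, 6 and 7 and 0.0086 with the muscle covariate. Without those 3 mice Camk2g was 0.036, Atp2a2 0.013, Ryr2 −0.43, Atp2a3 0.27, Itpr3 0.26, Itpr1 −0.12 and Camk2b −0.0012, and with the muscle covariate Atp2a2 was 0.0014. Leaving out 1 mouse at a time gave log2FC of −0.63 to 1.02 for Camk2a, −0.24 to −0.03 for Camk2b, −0.038 to 0.17 for Camk2d, −0.21 to −0.02 for Camk2g, −0.22 to 0.12 for Atp2a2, −0.044 to 0.17 for Atp2a3, −0.27 to 0.14 for Ryr2, −0.20 to 0.040 for Itpr1, −0.033 to 0.14 for Itpr2 and −0.10 to 0.16 for Itpr3. For shares (ΔGm15551 minus wild type, percentage points) the ranges were −0.0085 to 5.20 for Camk2d, −4.34 to −0.297 for Camk2g, −2.52 to 0.202 for Camk2b, −1.86 to 0.743 for Atp2a2, −5.13 to −0.200 for Itpr1 and −0.362 to 3.67 for Itpr2, at exact p of at least 0.103. The Gm15551 difference (wild type minus ΔGm15551) stayed between 0.171 and 0.282 CPM, with exact p from 0.00794 to 0.0873, the latter without any 1 ΔGm15551 mouse. Replicate numbers 2, 5 and 7 occur in both genotypes but did not pair the mice (correlations of deviations −0.0653, 0.0537 and −0.395). A fit with the replicate block on those 6 mice called 0 genes and gave log2FC of −1.40 for Camk2a, 0.28 for Atp2a2, 0.22 for Itpr1, −0.19 for Itpr3, −0.26 for Camk2g, 0.27 for Itpr2, −0.21 for Camk2b and 0.00078 for Ryr2. The same 6 mice with no replicate block gave −1.63 for Camk2a (edgeR, unadjusted p = 0.0607, adjusted p = 0.964), 0.26 for Atp2a2 and 0.19 for Itpr1. They gave −0.14 for Itpr3, −0.26 for Camk2g and 0.27 for Itpr2. Camk2d was at 0.15 with the block and 0.18 without it, against 0.10 in the main fit. All these values moved with the mice taken.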

Other observations

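Among the 70 tested genes of the wider calcium list, Stim1, the calcium sensor of the store that opens entry channels when the store empties, had the highest Pearson's r with Atp2a2 across the 10 mice (r = 0.938, rho = 0.855, and r = 0.863 with the length slope removed). Stim1 ran from 85.7 CPM in ΔGm15551 replicate 1 to 188 CPM in ΔGm15551 replicate 2, and from 97.4 to 171 CPM in wild type, with a log2FC of 0.04 ± 0.20 (SE, edgeR adjusted p = 0.999809). Next by r came Mcur1, a regulator of mitochondrial calcium uptake (r = 0.915, rho = 0.685), Rcan3, a regulator of calcineurin (r = 0.906, rho = 0.891), and Adra1d, an alpha-1 adrenergic receptor (r = 0.901, rho = 0.915), with r of 0.733, 0.664 and 0.842 once the length slope was removed. By rho, Adra1d, Rcan3 and Nfatc3 (0.891) stood above Stim1. At the other end, Smdt1, a small subunit of the mitochondrial calcium uniporter, had r = −0.887, and −0.398 with the length slope removed. These genes were chosen after their values were seen, and their correlations are given as a description with no test.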
